A study of Homo sapiens with 3 samples.

Results

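Collagen leaves the cell and becomes a stiff fibre only after a series of enzymes has worked on it, and the 10 genes described here encode the core of that machinery. They are the lysyl oxidases LOX, LOXL1, LOXL2 and LOXL3, the lysyl hydroxylases PLOD1, PLOD2 and PLOD3, the prolyl 4-hydroxylase alpha subunits P4HA1 and P4HA2, and the collagen chaperone SERPINH1 (HSP47). They were listed by name, with earlier results of these data known, and no measured value entered the rule. The list was taken out of 24254 gene symbols on 26108 rows of the deposited table. Each of the 10 was found under its own symbol and passed the filter on low values, a mean of at least 0.5 FPKM over the libraries, which 12422 symbols passed in all.

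LX-2 is an established line of human hepatic stellate cells. Its mRNA was sequenced from cultures given vehicle, 50 ng/mL rhFGF19 (recombinant human FGF19, the lower dose below) or 100 ng/mL rhFGF19 (the higher dose). There was 1 library per condition, so no difference below has a replicate check and no p-value is given. The question was which transcripts of a liver stromal cell differ after exposure to FGF19, a hormone-like fibroblast growth factor. The doses follow the sample titles and the agent field. The description field exchanges them, calling the library titled 50 ng/mL a 100 ng/mL culture and the other a 50 ng/mL culture, and gives 72 h and 73 h, whereas the design text gives 24 h. An exchange would swap the names of the rhFGF19 libraries throughout and leave the vehicle library as it is. A cell line in culture is a single cell population without the hepatocytes, endothelial cells and blood cells of the liver.

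Values are FPKM, fragments per kilobase of transcript, corrected for the total of the library. A level of one gene can be set beside that of another within a library because the unit is per length. Read counts are not held in this unit and sequencing depth is therefore unknown. The FPKM values summed to 302243 in the vehicle library, 276690 with the lower dose and 281606 with the higher dose. A fold change is the difference of log2(FPKM + 0.1) between an rhFGF19 library and the vehicle library, and the added 0.1 understates the change of low genes. A gene is called higher or lower where that log2 fold change passed 1 in size, that is, 2-fold. The libraries differed broadly. At least 1 FPKM was listed for 8891 symbols in vehicle against 10929 and 10905 after rhFGF19, and the median log2 fold change of all tested genes was 0.62 at each dose. Both fold changes use the same vehicle library, so they share whatever is particular to it.

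Stellate cells are the main source of fibrillar collagen in injured liver. In the endoplasmic reticulum, prolyl 4-hydroxylase converts prolines of the procollagen chain so that the triple helix holds at body temperature, and it works as a tetramer of alpha subunits with P4HB. Lysyl hydroxylases modify lysines. PLOD1 acts in the helix, PLOD2 on the telopeptides at the chain ends and so sets the kind of cross-link, and PLOD3 also adds sugars to hydroxylysine. SERPINH1 binds the folded helix and travels with it towards the Golgi. After secretion, copper-dependent lysyl oxidases oxidise lysines of collagen and elastin, which then link neighbouring molecules. Several of these genes, among them LOX, PLOD2, P4HA1 and P4HA2, are known targets of the hypoxia-inducible factor HIF-1.

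The core of the element that HIF-1 binds is ACGTG or GCGTG, and since LOX, PLOD2 and P4HA1 turned out to be the members that were over 2-fold higher, the stretches upstream of the members' start sites were read for those letters, a choice made after the values were seen. RefSeq promoter sequences (GRCh38.p14) were read for 9 members, LOXL2 not included, on both strands. Each is the 250 bases before the most upstream RefSeq start in that table of promoters. These starts often differ from the ends of the deposited genes. Only the LOX and PLOD2 stretches lie wholly outside the gene coordinates given below. Those of PLOD1, LOXL1, PLOD3 and P4HA2 lie wholly inside them, and those of LOXL3, P4HA1 and SERPINH1 partly, so unlike places are read. ACGTG was found in 3 of the 9, namely LOX with 4 matches, PLOD2 with 2 and P4HA1 with 1. GCGTG was found in PLOD1 with 2 matches and PLOD2 with 1. Of the 9, 5 had neither form, P4HA2 among them, so only LOX, PLOD2, P4HA1 and PLOD1 held at least 1 of the forms. Among all 35116 promoters of the same length in that table, 18.5% held ACGTG, 32.2% held GCGTG and 43.2% held at least 1 of them. With either form counted, the share of the members was near that background and is no result about them. ACGTG is also part of the E-box CACGTG, which was found in none of the 9. A match describes letters and not a bound site, and binding was not measured in these libraries.

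The upstream stretch of PLOD2 is shown whole because it holds both forms of the motif. It lies at chr3:146161185-146161434 on the minus strand and is printed 5′ to 3′ on the strand of the gene, with the matches in capitals. CACGT in capitals is ACGTG read on the opposite strand.
PLOD2: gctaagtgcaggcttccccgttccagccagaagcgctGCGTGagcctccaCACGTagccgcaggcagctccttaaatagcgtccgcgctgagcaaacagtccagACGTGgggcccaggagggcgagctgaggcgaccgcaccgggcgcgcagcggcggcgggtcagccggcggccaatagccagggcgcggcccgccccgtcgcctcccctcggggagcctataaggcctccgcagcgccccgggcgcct

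For LOX, P4HA1 and PLOD1 each match is shown with 10 bases on each side. The LOX and P4HA1 matches are of ACGTG and the PLOD1 matches of GCGTG. The P4HA1 and PLOD1 windows lie inside the deposited gene coordinates. The part of these letters in the members' values was not tested. Positions count from the RefSeq start site, with -1 as the last base before it. They name the first base of the match on the strand of the gene. The LOX and P4HA1 windows are on the minus strand and the PLOD1 windows on the plus strand of GRCh38.p14.
LOX at -185, chr5:122078430-122078454: tccctgtgcaACGTGtctgggggga
LOX at -116, chr5:122078361-122078385: gtccgccttgCACGTttccaatcgc
LOX at -98, chr5:122078343-122078367: caatcgcattACGTGaacaaatagc
LOX at -42, chr5:122078287-122078311: aactttgcaaACGTGccagaaagtt
P4HA1 at -86, chr10:73096938-73096962: tgatcgagctCACGTagcgagggct
PLOD1 at -68, chr1:11934639-11934663: gcgggggaggGCGTGgaggggcggg
PLOD1 at -25, chr1:11934682-11934706: cgggcccagtGCGTGgcagcgggac

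The machinery split into 3 genes of low level that were over 2-fold higher after rhFGF19 and 7 that were not, of which all but LOXL3 were abundant. LOX, PLOD2 and P4HA1, 3 of the 10 members or 30%, were over 2-fold higher with the lower dose, and the same 3 were with the higher dose. Among all tested genes 39.5% were over 2-fold higher with the lower dose and 38.6% with the higher dose, so the share of the members was near the background and is no result about them. None of the 10 was over 2-fold lower, where 1.75% of all tested genes were with the lower dose and 1.47% with the higher dose. The other 7 members lay between -0.58 and 0.01 on the log2 scale with the lower dose and between -0.64 and -0.08 with the higher dose. The median log2 fold change of the 10 members was -0.12 with the lower dose and -0.13 with the higher dose, below the 0.62 of all tested genes at each dose. The count of higher members was 1 at each dose once the median of all tested genes was set to 0, and 0 after quantile normalization. Of all tested genes 10.7% and 10.0% were higher under the first scaling, and 9.19% and 8.42% under the second. Under the same scalings 3 and 2 members, and then 1 and 1, were over 2-fold lower, beside 21.8% and 20.8%, and 9.85% and 9.02%, of all tested genes. In bulk RNA, fewer cells with a transcript and less of it per cell cannot be told apart.

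**Figure D1:**
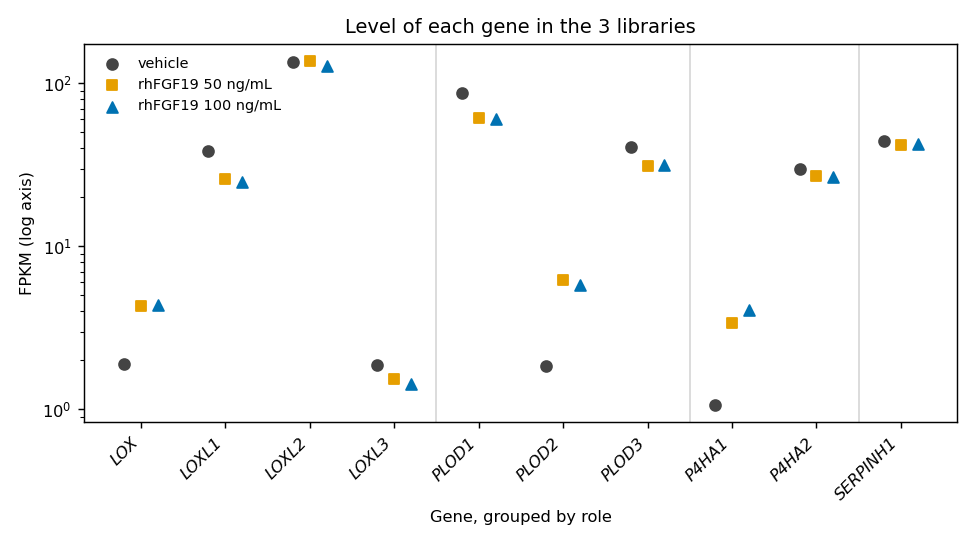
FPKM of each of the 10 members on a log axis, with 1 point for each of the 3 libraries (vehicle, rhFGF19 at 50 and at 100 ng/mL) and no error bars, since there is 1 library per condition. LOX, PLOD2 and P4HA1 start at 1.06 to 1.90 FPKM in vehicle and lie higher in both rhFGF19 libraries, while the 6 members between 24.7 and 137 FPKM after rhFGF19 stay within 2-fold of vehicle.

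The fold changes followed a trend on base composition, so each member's fold changes are given below with the medians of genes of similar GC content. Levels, family shares and family sums are not corrected for this trend. Over the 12397 tested genes with a GC content (median over the transcripts listed for the gene), Spearman's rho between GC content and log2 fold change was -0.77 with the lower dose and -0.77 with the higher dose. These are correlations across genes of single libraries, and both share the vehicle library. Between the rhFGF19 libraries rho was 0.068. LOX, PLOD2 and P4HA1 had a GC content of 34.4% to 44.4%, and the other 7 members of 52.7% to 60.0%, with a median of 51.1% over all tested genes. With the trend removed, 0 members were over 2-fold higher or lower at either dose. The members then ranged from -0.54 to 0.33 with the lower dose and from -0.57 to 0.40 with the higher dose, with medians of -0.11 and -0.090. Of all genes 3.74% and 3.33% were then over 2-fold higher, and 5.13% and 4.59% over 2-fold lower. The part of this trend in the members' values was not tested.

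Among the lysyl oxidases, LOX, the founding member of the family, was listed at 1.90 FPKM in vehicle, 4.33 with the lower dose and 4.39 with the higher dose. Both rhFGF19 libraries were above vehicle and close to each other, with log2 fold changes of 1.15 and 1.17, or 2.22-fold and 2.25-fold on the scale of FPKM + 0.1. These stood at percentiles 66.3 and 68.4 of all tested genes. The 971 genes within 1 percentage point of its GC content had medians of 1.33 and 1.31, so LOX lay slightly below genes of its own composition. With the GC trend removed its values turned to -0.15 and -0.11, and with a pseudocount of 1 they were 0.88 and 0.89, within 2-fold. LOX (ENSG00000113083) lies at chr5:122063195-122078259 on the minus strand and overlaps SRFBP1 on the opposite strand over 12376 bases. SRFBP1 was listed at 0.21, 0.95 and 1.19 FPKM, and since the strandedness of the libraries is not stated, reads of the overlap cannot be told apart.

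LOXL1, the family member best known for elastic fibres, was listed at 38.7 FPKM in vehicle, 25.8 with the lower dose and 24.7 with the higher dose. It was the lowest of the 10 by log2 fold change at each dose, -0.58 and -0.64, still within 2-fold. The 929 genes of similar GC content had medians of -0.26 and -0.24. After removal of the GC trend LOXL1 stood at -0.38 and -0.45, but at 0.01 and -0.07 with the GC content of its longest transcript, which is 67.6% against a median of 58.2% over its transcripts. LOXL1 (ENSG00000129038) lies at chr15:73925989-73952137 on the plus strand and overlaps LOXL1-AS1 on the opposite strand, which was listed at 2.51, 2.92 and 2.91 FPKM.

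LOXL2, a secreted enzyme linked to collagen IV and fibrillar collagen cross-links, was the most abundant member in every library, with 136 FPKM in vehicle, 137 with the lower dose and 128 with the higher dose. Its log2 fold changes were 0.01 and -0.09, and the second turned to 0.01 with TPM and 0.15 after quantile normalization. The levels put it at percentile 97.1 or above among all tested genes in each library. The 903 genes of similar GC content had medians of -0.38 and -0.36, and with the GC trend removed LOXL2 stood at 0.33 and 0.21. LOXL2 (ENSG00000134013, chr8:23296897-23425291, minus strand) shares 39509 bases and its strand with ENTPD4, which was listed at 2.72, 6.5 and 6.65 FPKM. LOXL3 was the lowest lysyl oxidase in each library, at 1.86, 1.54 and 1.44 FPKM, with log2 fold changes of -0.26 and -0.35. The 916 genes of similar GC content had medians of -0.17 and -0.15, and with the GC trend removed LOXL3 stood at -0.14 and -0.24. LOXL3 (ENSG00000115318, chr2:74532258-74553961, minus strand) overlaps HTRA2 and DOK1 on the opposite strand. Both are many times higher than LOXL3, with 32.3, 23.0 and 24.9 FPKM for HTRA2 and 22.0, 14.5 and 12.6 FPKM for DOK1, and both have smaller values after rhFGF19.

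Seen as a family, the lysyl oxidases kept their order of size except at the low end. LOXL2 made up 75% of the summed FPKM of LOX, LOXL1, LOXL2, LOXL3 and LOXL4 in vehicle, 79.9% with the lower dose and 79.1% with the higher dose. LOXL1 made up 21.4%, 15.1% and 15.3%. LOX made up 1.05%, 2.53% and 2.72%, so the gene that was over 2-fold higher was a small part of lysyl oxidase mRNA in every library. The ratio of LOX to LOXL2 was 0.0140, 0.0317 and 0.0344, 2.26 times and 2.46 times its value in vehicle after rhFGF19. After quantile normalization LOX was 1.74%, 2.06% and 2.27% of its family. These shares and ratios are not corrected for the GC trend. Genes of similar GC content had median log2 fold changes of 1.33 and 1.31 for LOX and -0.38 and -0.36 for LOXL2. The part of the trend in the ratio was not tested. The family sum was 181, 171 and 161 FPKM, a log2 fold change of -0.08 with the lower dose and -0.17 with the higher dose.

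Among the lysyl hydroxylases, PLOD2, the telopeptide enzyme, was listed at 1.84 FPKM in vehicle, 6.24 with the lower dose and 5.83 with the higher dose. It had the highest log2 fold change of the members with the lower dose, 1.71, and the second highest with the higher dose, 1.61. These were 3.27-fold and 3.06-fold, at percentiles 92.7 and 89.9 of all tested genes. PLOD2 also had the lowest GC content of the 10, 34.4%. The 73 genes within 1 percentage point of it had medians of 1.45 and 1.52, and with the GC trend removed PLOD2 stood at 0.16 and 0.069. PLOD2 (ENSG00000152952) lies at chr3:146069440-146161184 on the minus strand with no overlapping gene in the table.

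PLOD1, the helix enzyme, was listed at 87.1, 61.0 and 60.3 FPKM, with log2 fold changes of -0.51 and -0.53. Genes of similar GC content had medians of -0.30 and -0.29 (938 genes). PLOD3 was listed at 40.9, 31.1 and 31.6 FPKM, with log2 fold changes of -0.40 and -0.37, close to the -0.38 and -0.36 of the 906 genes of its composition. Both genes were lower than vehicle in each rhFGF19 library but within 2-fold. With the GC trend removed PLOD1 stood at -0.28 and -0.31 and PLOD3 at -0.073 and -0.067. PLOD1 (ENSG00000083444) lies at chr1:11934205-11966414 on the plus strand, and PLOD3 (ENSG00000106397) at chr7:101205977-101218366 on the minus strand, where it overlaps ZNHIT1 by 202 bases on the opposite strand.

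Within the lysyl hydroxylases, PLOD2 was 1.42% of the summed PLOD1, PLOD2 and PLOD3 FPKM in vehicle, 6.35% with the lower dose and 5.97% with the higher dose. The ratio of PLOD2 to PLOD1 was 0.0211, 0.102 and 0.0967, 4.85 times and 4.58 times its value in vehicle, with PLOD2 over 2-fold higher and PLOD1 at 0.700 and 0.693 times its vehicle level. After quantile normalization PLOD2 was 2.38%, 5.36% and 5.07% of its family. Neither the shares nor the ratio are corrected for the GC trend. Medians of genes of similar GC content were 1.45 and 1.52 for PLOD2 and -0.30 and -0.29 for PLOD1. The part of the trend in the ratio was not tested. The family sum was 130, 98.3 and 97.7 FPKM, with log2 fold changes of -0.40 and -0.41.

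The prolyl 4-hydroxylase alpha subunits gave a similar picture. P4HA1, the main catalytic subunit in most tissues, was the lowest member in vehicle at 1.06 FPKM and was listed at 3.38 and 4.09 FPKM after rhFGF19. The log2 fold changes were 1.58 and 1.85, or 3-fold and 3.61-fold, at percentiles 87.8 and 96.8 of all tested genes. P4HA1 differed most between the rhFGF19 libraries, by 0.27, where the next largest difference among the members was 0.099. The median of the 751 genes around its GC content was 1.51 at each dose, and with the GC trend removed P4HA1 stood at 0.11 and 0.40. P4HA1 (ENSG00000122884) lies at chr10:73007217-73096974 on the minus strand with no overlapping gene in the table.

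P4HA2 was listed at 29.8, 27.1 and 26.5 FPKM, with log2 fold changes of -0.14 and -0.17. It lay furthest below genes of its own composition, since the 880 genes around its GC content of 52.7% had medians of 0.41 and 0.42. With the GC trend removed P4HA2 stood at -0.54 and -0.57, the lowest of the members, and at -0.89 and -0.91 with the GC content of the longest transcript. P4HA2 (ENSG00000072682) lies at chr5:132191838-132295315 on the minus strand and overlaps PDLIM4, SLC22A4 and AC063976 on the opposite strand. Of these, SLC22A4 was listed at 1.87, 6.63 and 4.95 FPKM and the other pair at 0.08 FPKM or less.

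The summed alpha subunits were almost level, at 30.9, 30.5 and 30.6 FPKM. P4HA1 made up 3.43% of that sum in vehicle, 11.1% with the lower dose and 13.3% with the higher dose, and P4HA2 96.4%, 88.8% and 86.4%. After quantile normalization P4HA1 was 5.76%, 9.27% and 11.5% of the sum. The ratio of P4HA1 to P4HA2 was 0.0355, 0.125 and 0.155. Shares and ratio are again not corrected for the GC trend. Genes of similar GC content had medians of 1.51 at each dose for P4HA1 and of 0.41 and 0.42 for P4HA2. The part of the trend in the ratio was not tested. P4HA3, the remaining alpha subunit, was at 0.04, 0.04 and 0.09 FPKM and did not pass the filter. P4HB, which supplies the beta subunit and also works alone as a disulphide isomerase, was listed at 411, 339 and 331 FPKM, 13.3, 11.1 and 10.8 times the summed alpha subunits.

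SERPINH1, the only collagen-specific chaperone in the group, was listed at 44.5 FPKM in vehicle, 41.7 with the lower dose and 42.2 with the higher dose. SERPINH1 was nearly level, with log2 fold changes of -0.09 and -0.08, which turned to 0.03 and 0.02 when the values were rescaled to TPM and to 0.13 and 0.11 after quantile normalization. The 934 genes of similar GC content had medians of -0.35 and -0.34, and with the GC trend removed SERPINH1 stood at 0.19 and 0.19. The ratio of SERPINH1 to COL1A1, the major chain it serves, was 0.568 in vehicle, 0.387 with the lower dose and 0.405 with the higher dose. SERPINH1 (ENSG00000149257) lies at chr11:75562056-75572783 on the plus strand with no overlapping gene in the table.

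Ordered by FPKM in the vehicle library, the members ran from LOXL2, PLOD1, SERPINH1, PLOD3, LOXL1 and P4HA2 down to LOX, LOXL3, PLOD2 and P4HA1. In both rhFGF19 libraries the first 4 places were the same. P4HA2 and LOXL1 changed places, PLOD2 moved to the seventh place, and LOXL3 moved to the last. Without replicates the spread of neighbouring levels is unknown, and LOX, LOXL3 and PLOD2 lay within 1.84 to 1.90 FPKM of each other in vehicle, so their order there carries little.

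The doses gave close values for every member. No member was over 2-fold apart between the rhFGF19 libraries, as 1.63% of all tested genes were in either direction. With the higher dose 6 of the 10 were lower than with the lower dose, and the median difference of all tested genes was 0. The SD of that difference over all tested genes was 0.32 on the log2 scale, larger than the difference of any member. With the label conflict above, the sign of these differences depends on which dose field is right.

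Another 32 genes of collagen modification, folding, export and propeptide cleavage were looked up as partners of the machinery, all 32 in the table and 24 of them past the filter. Of the 24, 11 (45.8%) were over 2-fold higher with the lower dose and 10 (41.7%) with the higher dose, beside 39.5% and 38.6% of all tested genes, and 0 were over 2-fold lower, with medians of 0.52 and 0.53. FKBP14, TRAPPC2 and TLL1, all higher with the lower dose, had under 0.5 FPKM in vehicle and passed only through the rhFGF19 libraries. Of the 21 partners with at least 0.5 FPKM in vehicle, 8 were over 2-fold higher at each dose, with medians of -0.031 and 0.17. The highest were SEC23A, a coat protein of export vesicles, with 2.37, 8.37 and 8.05 FPKM, and HSP90B1, a general endoplasmic reticulum chaperone, with 17.3, 58.5 and 56.9 FPKM. TLL1, a propeptide protease, was listed at 0.30, 1.19 and 1.20 FPKM. MIA3, a receptor for bulky collagen cargo, was listed at 0.56, 1.97 and 1.65 FPKM. TMEM38B, an endoplasmic reticulum ion channel, was listed at 1.01, 2.98 and 3.17 FPKM. Their log2 fold changes ran from 1.41 to 1.78 and their GC contents from 41.1% to 45.5%.

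The lowest partners were P3H3, a prolyl 3-hydroxylase family gene, with 54.1, 30.6 and 32.4 FPKM, and PPIB, a prolyl isomerase of the same compartment, with 452, 314 and 316 FPKM. FKBP10, a chaperone that acts with lysyl hydroxylase, was listed at 133, 97.0 and 95.9 FPKM, COLGALT1, a hydroxylysine galactosyltransferase, at 49.1, 37.2 and 36.7 FPKM, and P4HB as given above. Their log2 fold changes ran from -0.82 to -0.28, within 2-fold, and their GC contents from 56.5% to 62.3%. LOXL4, the lysyl oxidase outside the 10, was listed at 2.76, 2.70 and 3.12 FPKM. With the GC trend removed 0 of the 24 partners were over 2-fold higher, and their medians were 0.072 and 0.029.

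The partner nearest to each member was taken as the one at the smallest distance in the pair of log2 fold changes, a likeness that rests on 3 libraries. PLOD1 lay next to PPIB (distance 0.018), P4HA2 next to PCOLCE (0.014), LOXL3 next to P4HB (0.039) and PLOD3 next to COLGALT1 (0.049). PLOD2 and P4HA1 both lay next to TLL1 (0.091 and 0.18), SERPINH1 and LOXL2 both next to PCOLCE (0.094 and 0.17), LOXL1 next to PPIB (0.14) and LOX next to MESD (0.15). The distances use values before the GC trend was removed. With it removed P4HA2 stood at -0.54 and -0.57 but PCOLCE at 0.34 and 0.30. LOX then stood at -0.15 and -0.11 but MESD at 0.30 and 0.42. PLOD1, at -0.28 and -0.31, and PPIB, at -0.42 and -0.42, kept the same sign. TLL1 had under 0.5 FPKM in vehicle and passed the filter only through the rhFGF19 libraries. Its place beside PLOD2 and P4HA1 is therefore partly set by the filter.

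The substrates of the machinery varied among themselves. Of 6 fibrillar collagen genes, 5 had a row and 4 passed, and 1 was over 2-fold higher at each dose (25%, beside 39.5% and 38.6% of all tested genes). The medians were 0.64 and 0.62, or 0.40 and 0.38 with the GC trend removed. The gene over 2-fold higher was COL3A1, with 1.79, 4.15 and 4.3 FPKM and log2 fold changes of 1.17 and 1.22, which turned to -0.29 and -0.23 with the GC trend removed. COL1A1 was listed at 78.4, 108 and 104 FPKM, with log2 fold changes of 0.46 and 0.41, or 0.86 and 0.79 with the GC trend removed. COL1A2, whose chain pairs with COL1A1 in type I collagen, was at 0.03, 0.10 and 0.14 FPKM and did not pass. COL5A2 was listed at 29, 50.2 and 49.6 FPKM, and stood at -0.036 and -0.036 with the GC trend removed. Of 7 other matrix substrates 6 had a row and passed, and FN1 (fibronectin) was the 1 over 2-fold higher (16.7%), with 58.6, 125 and 121 FPKM. COL6A2 was listed at 141, 99.9 and 101 FPKM, with log2 fold changes of -0.49 and -0.48, and COL6A1 at 73.2, 62.9 and 64.1 FPKM, with -0.22 and -0.19.

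Targets of HIF-1 outside the 10 lay on both sides of vehicle. Of 15 listed, 14 had a row and 11 passed, of which 3 (27.3%) were over 2-fold higher at each dose and 0 lower, against 39.5% and 38.6% of all tested genes, with medians of 0.72 and 0.70, or 0.20 and 0.17 with the GC trend removed. The 3 were LDHA, EGLN1 and KDM3A, of which KDM3A, at 0.20, 0.73 and 0.78 FPKM, passed the filter only through the rhFGF19 libraries. The most abundant genes of the list were glycolytic enzymes. LDHA was listed at 16.7, 61.3 and 57.9 FPKM, with log2 fold changes of 1.87 and 1.79. PGK1, at 273, 207 and 209 FPKM, had log2 fold changes of -0.40 and -0.38, and ALDOA, at 573, 319 and 317 FPKM, had -0.84 and -0.85. With the GC trend removed LDHA stood at 0.60 and 0.54, PGK1 at -1.77 and -1.74 and ALDOA at -0.50 and -0.52. PGK1 was then over 2-fold lower and LDHA within 2-fold. Of 10 TGF-beta response genes 9 had a row and 8 passed, with 3 (37.5%) over 2-fold higher at each dose and medians of 0.84 and 0.79, or 0.18 and -0.06 with the GC trend removed. The 3 were CCN2, SKIL and IGFBP3, of which SKIL, at 0.24, 1.06 and 0.66 FPKM, passed the filter only through the rhFGF19 libraries. Of the abundant genes of the list, TAGLN was listed at 223, 118 and 126 FPKM and TGFB1 at 134, 93.8 and 94.0 FPKM, each within 2-fold.

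The identity of the cells was checked with lists of markers. Of 12 stellate and fibroblast markers 11 had a row and 7 passed, summing to 1882, 1568 and 1605 FPKM, and among them VIM was listed at 439, 654 and 649 FPKM and S100A6 at 821, 490 and 520 FPKM. ACTA2 was at 8.55, 8.01 and 7.74 FPKM and PDGFRB at 3.86, 5.78 and 5.25 FPKM. LRAT, a marker of quiescent stellate cells, was listed at 0 in every library, DES at 0, 0 and 0.08, and LUM at 0, 0 and 0.04. Of 8 hepatocyte markers 2 passed, ALB with 2.16, 2.49 and 1.89 FPKM and SERPINA1 with 8.93, 9.62 and 9.11 FPKM, and the list summed to 11.3, 12.6 and 11.5. Epithelial markers summed to 504, 309 and 303 FPKM, nearly all of it KRT18 and KRT8, with CDH1 at 0.01 or less. Blood cell markers summed to 52.0, 47.0 and 42.4 FPKM, mostly CD68, and endothelial markers to 0.74, 1.04 and 1.07. The part of these markers in the members' values was not tested.

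The largest distance of a member from the median of genes within 1 percentage point was 0.55 with the lower dose and 0.59 with the higher dose, both for P4HA2. With the trend removed, 8 of the 10 members had the same sign as before with the lower dose and 7 with the higher dose. LOX turned negative at each dose, SERPINH1 turned positive at each dose, and LOXL2 turned positive with the higher dose. P4HA1 was the highest of the 10 with the higher dose, at 0.40, and LOXL2 with the lower dose, at 0.33, each under 2-fold.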

How the data were processed

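The mRNA of 3 LX-2 cultures was sequenced as paired-end poly(A) libraries, per the labels. HISAT2 was the aligner named by the authors, who deposited FPKM values to 2 decimals, 1 for each gene in each library. Their methods describe logCPM, which is not what the table holds. The submitters' processing notes list HISAT2 2.0, StringTie 1.3.0 and Bowtie 0.12.2 and the builds hg19 and mm8, with no role for each. Of 25531 rows found by identifier in GENCODE v29, 99.8% overlapped the GRCh38 position, as did all 10 members, so GRCh38 is the build of the coordinates given. Strandedness, the annotation used and filters are not given in the sources used here. The smallest value above 0 was 0.01 FPKM in each library.

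From the deposited FPKM, rows with one symbol were summed, symbols averaging 0.5 FPKM or more were kept, differences of log2(FPKM + 0.1) were taken between single libraries, and 2-fold, the criterion in the study's methods, was the threshold. Without replicates or counts, no test or interval was computed. Locally weighted regression (span 0.3) took out trends on the GC content or log2 length of GENCODE v29 transcripts. The procedure was tested on simulated data, with genes changed at random and without regard to GC content. Such data cannot show whether removal of the trend keeps real changes of low-GC genes. The members and gene lists were chosen with earlier results of these data known. The genes named were all members, the 5 highest and 5 lowest partners by mean log2 fold change, P4HB, P4HA3, LOXL4, each member's nearest partner and up to 3 of the most abundant genes of each other list, and further markers or substrates (COL1A2, COL3A1, EGLN1, KDM3A, CCN2, SKIL, IGFBP3, FKBP14, TRAPPC2, ACTA2, PDGFRB, LRAT, DES, LUM, CDH1) named after their values were seen. The 10 alternatives tried were other pseudocounts, filters, scalings, trends and a 1.5-fold threshold, and 1 more was added after seeing the data. Listed genes without a row (COL11A1, ELN, CA9, POSTN, DCN, EPCAM, KRT20, PTPRC, CD3E, EMCN and CLEC4G among them) were not analysed here, and the values of 1 gene of a list are not reported here. Calculations used Python 3.11.15, NumPy 2.4.6, pandas 2.3.3 and statsmodels 0.14.6.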

Additional observations from a re-analysis of the deposited data

Results flagged for a closer look

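LOXL2 had log2 fold changes of opposite sign at the doses, 0.0089 with the lower dose (50 ng/mL) and -0.090 with the higher (100 ng/mL). Its levels were 136 FPKM in vehicle and then 137 and 128. LOXL4 did too, with -0.031 and 0.17 and 2.76, 2.70 and 3.12 FPKM. With 1 library per dose the difference between the doses was not tested, and each of the 4 values is smaller than the SD of 0.32 by which tested genes differed between the rhFGF19 libraries.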

How the results depend on the processing

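The members' count over 2-fold higher rested on the scaling. It was 3 at each dose with the deposited values and was also 3 with a pseudocount of 0.01, with no filter, with a filter of a mean of at least 1 FPKM, with TPM and with a 1.5-fold threshold. With a pseudocount of 1 it was 2 at each dose, LOX falling to 0.88 and 0.89, beside 17.6% and 16.7% of all tested genes. With the median of all tested genes set to 0, a shift of 0.62, it was 1 at each dose (PLOD2, then P4HA1). LOXL1, PLOD1 and PLOD3, 3 members, were then over 2-fold lower with the lower dose and the first 2 of these with the higher, and the members' medians were -0.74 and -0.75. After quantile normalization 0 were higher and 1, LOXL3, was lower at each dose. With the trend on transcript length removed, 0 were higher with the lower dose and 1 (P4HA1) with the higher dose, 2 (LOXL1 and LOXL3) were lower with the higher dose, and the medians were -0.65 and -0.67. Of all tested genes 13.6% were then higher and 15.2% lower with the higher dose. After removal of the GC trend 0 were higher at each dose, and LOX reversed to -0.15 and -0.11. With the GC content of the longest transcript instead, chosen after seeing the data, 0 were higher, and LOX reversed to -0.29 and -0.26. At 1.5-fold, 1 member, LOXL1, was lower with the higher dose, beside 12.5% of all tested genes. The cause was not tested.

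The partners' counts over 2-fold higher, 11 and 10, were 3 and 4 with a pseudocount of 1, 4 and 3 once the median was set to 0, 3 and 4 after quantile normalization, 5 and 4 with the length trend removed, and 0 and 0 with either GC trend removed. Their medians, 0.52 and 0.53, were 0.083 and 0.18 with a filter of a mean of at least 1 FPKM, 0.072 and 0.029 after removal of the GC trend, 0.032 and 0.034 after removal of that of the longest transcript, -0.10 and -0.085 with the median set to 0, and -0.16 and -0.13 with the length trend removed.

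Over all tested genes with the lower dose, 39.5% were over 2-fold higher and 1.75% lower with the deposited values, against 10.7% and 21.8% with the median set to 0, 9.19% and 9.85% after quantile normalization, 3.74% and 5.13% with the GC trend removed and 14.0% and 16.2% with the length trend removed. With TPM 44.5% were higher, at 1.5-fold 51.0%, and with the GC trend of the longest transcript removed 3.28%. Filters cannot change the fold change of a single gene. Of 160 single-member fold changes under the other alternatives, 88 moved by less than 0.32, the SD between the rhFGF19 libraries. The sign differed from that of the deposited values in 21, of which 8 were of SERPINH1, 6 of LOXL2, 4 of LOX, 2 of PLOD3 and 1 of LOXL1, and LOX was the 1 gene among these past 2-fold with the deposited values. No paired analysis was possible because each condition has 1 library and the result comes from no test. No replicate could be left out. FPKM keep no depth, so the precision of low members such as P4HA1, LOX, LOXL3 and PLOD2 in vehicle is unknown.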
